A study of Mus musculus with 12 samples.

Results

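The genes described here are the 10 members of the mouse HoxB cluster, Hoxb1 to Hoxb9 and Hoxb13. They are defined by name, after the gene identifiers of the count files had been matched without their version to GENCODE release M21, and make up 10 of the 55401 genes in those files. The study profiled poly(A) RNA of mouse totipotent potential stem cells (TPS cells) and extended pluripotent stem cells (EPS cells) with 12 libraries. There were 3 cell lines of each kind and 2 technical replicates of each line, which were summed here, so n is 3 lines a group. The TPS lines grew on feeder cells in a medium that the labels call VCED and the study's methods call CPEC, with 4 small molecules: EPZ004777 (against DOT1L), CHIR99021 (against GSK3), VPA (against histone deacetylases) and CD1530 (an activator of RARγ). The EPS lines, the comparison group, also grew on feeder cells, in LCDM medium, which contains LIF, CHIR99021, dimethindene maleate and minocycline. CHIR99021 and feeders were thus common to both groups, and every other named agent differed between them, so that cell state and medium cannot be told apart. The labels give no strain, genotype or embryo of origin for any line, and the p-values below measure the spread between these lines. Library totals ranged from 13676051 to 21821707 counts, the pluripotent genes were expressed in all 6 lines, and fibroblast genes were also found in every line, as detailed further on.

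Hox genes encode homeodomain transcription factors that give cells along the head-to-tail axis of the embryo their regional identity. In each cluster the genes are switched on one after another from the 3′ end, which starts with paralog group 1 and is expressed most anteriorly, towards the 5′ end. Retinoic acid acting through its nuclear receptors opens the 3′ side of the HoxB cluster, Cdx factors act on its central genes, and Polycomb complexes keep the whole cluster silent in undifferentiated stem cells. The HoxB cluster lacks paralog groups 10 to 12, and Hoxb13 stands far from the other genes.

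The 10 genes lay on chromosome 11 within chr11:96194316-96368256 of GRCm38, all on the plus strand, in a stretch of 173.9 kb. From Hoxb9 to Hoxb1 the genes covered 96.8 kb, and a gap of 74.0 kb separated Hoxb13 from Hoxb9. Hoxb1 (ENSMUSG00000018973.2) lay at chr11:96365752-96368256, 11.7 kb from Hoxb2, and was the gene at the 3′ end. RefSeq promoter windows of GRCm38.p6, which run from 250 bases before to 50 bases after a transcription start, were held for 3 of the 10 genes, Hoxb1, Hoxb4 and Hoxb8. The part of the Hoxb1 window before the start is shown because Hoxb1 had the largest difference of the cluster. Its capitals mark the only match to TGATNNAT, a form of the composite element that Pbx and Hox proteins bind together and that is known from the autoregulation of Hoxb1.

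Hoxb1 promoter, chr11:96365508-96365757, plus strand: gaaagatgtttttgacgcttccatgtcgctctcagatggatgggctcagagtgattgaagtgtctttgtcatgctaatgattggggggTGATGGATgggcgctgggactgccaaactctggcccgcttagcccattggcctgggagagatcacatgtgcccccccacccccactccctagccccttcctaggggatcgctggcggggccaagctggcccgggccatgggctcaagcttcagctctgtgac

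TGATNNAT, searched on both strands, was present in 2 of the 3 HoxB windows, those of Hoxb1 and Hoxb8, and in 8.85% of all 32851 windows. The motif was chosen after the sequences had been seen. Direct repeats of the retinoic acid receptor half-site RGKTCA (R is A or G, K is G or T) spaced by 1, 2 or 5 bases were in 0 of the 3 windows and in 0.588% of all windows. These matches describe letters in the windows only, and binding was not measured.

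All 10 HoxB genes had higher counts in each TPS line than in any EPS line. By comparison, this separation was met by 23.6% of the 17468 genes that passed the low-count filter. Of the 9 HoxB genes that passed the filter, 9 were called higher in TPS cells and 0 lower by edgeR's quasi-likelihood test at an adjusted p below 0.05, against 14.4% of all tested genes called higher and 7.34% called lower. The number called was 5 of 9 without TPS line 3, where 1617 of 18003 genes were called higher. At an adjusted p under 0.01 it was 1 of 9, beside 873 of 17468 genes. The filter needs care in reading that count, because 6 of the 9 (Hoxb1, Hoxb3, Hoxb4, Hoxb5, Hoxb6 and Hoxb8) passed it only through the TPS lines. Hoxb7, Hoxb9 and Hoxb13, the remaining 3, reached its cutoff of 0.280 CPM (counts in 1000000 of the library) in all 6 lines. Without the filter, the median log2 difference of the 10 genes was 3.06, beside 0.18 for all genes. In bulk RNA, fewer expressing cells and less RNA per cell cannot be told apart.

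The summed level of the 10 genes was 31.3, 42.7 and 54.2 CPM in TPS lines 1 to 3 and 3.26, 7.86 and 8.60 CPM in EPS lines 1 to 3. The lowest TPS line thus stood well above the highest EPS line, and the means (42.7 ± 11.5 and 6.57 ± 2.89 CPM, SD, n = 3) gave a ratio of 6.50. Leaving Hoxb1 out of the sum gave 31.8 ± 3.66 and 6.44 ± 2.80 CPM and a ratio of 4.95.

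**Figure D1:**
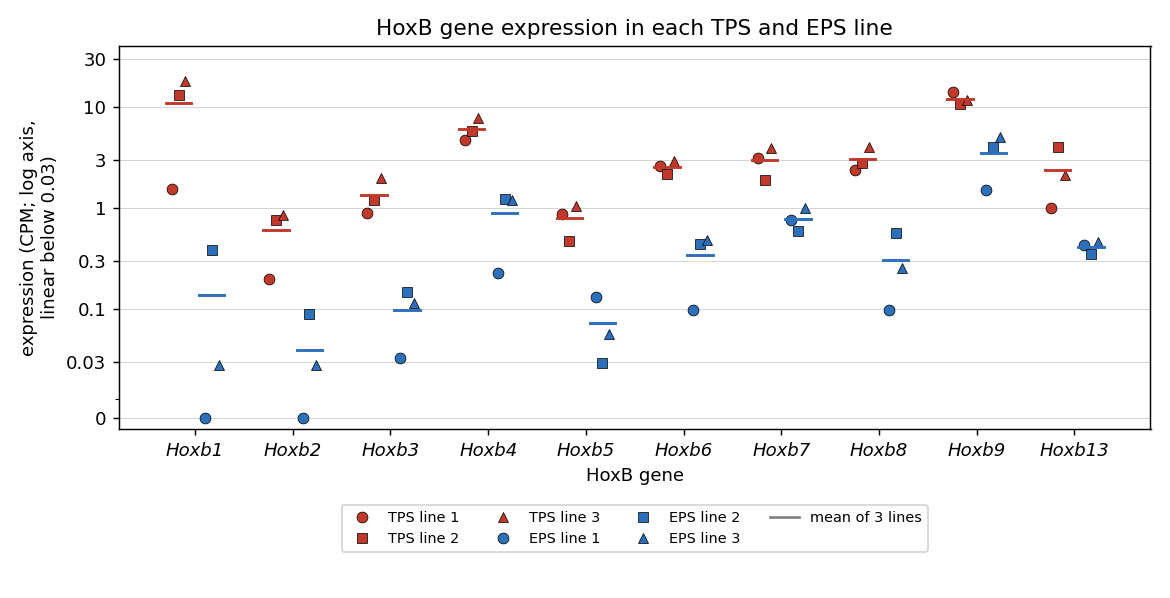
Expression of each HoxB gene in CPM (log axis, linear below 0.03) in the 3 TPS lines (red) and 3 EPS lines (blue); symbols give the line number and bars the mean of 3 lines. For each gene the lowest red symbol stands above the highest blue one, and Hoxb1 spreads most among the TPS lines, from 1.52 to 18.2 CPM.

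Hoxb1, which sets the identity of the fourth hindbrain segment and is among the earliest Hox genes to answer retinoic acid, was at 1.52, 13.03 and 18.2 CPM in the TPS lines. It was at 0, 0.383 and 0.0285 CPM in the EPS lines, where the 2 libraries of line 1 held no count, which allows up to 0.0979 CPM. The TPS lines were all higher, with line 1 far below lines 2 and 3. In counts, the 6 TPS libraries held 1136 in all and the 6 EPS libraries 14, of which 13 came from EPS line 2. The ratio of the summed counts, scaled for library size, was 73.5 (95% interval 43.6 to 135, counting error only). The fitted log2 fold change was 6.26 (SE 1.29, edgeR adjusted p = 0.0152), and it was 9.17 without EPS line 2 and 5.67 without TPS line 3. The 2 technical replicates of each TPS line held 35 and 26 counts of Hoxb1 in line 1, 248 and 255 in line 2 and 298 and 274 in line 3. Over all genes, technical replicates differed beyond counting error in every line (chi-square per degree of freedom 2.58 to 22.3, highest in EPS line 3), so intervals from counting error alone are too narrow.

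Hoxb2, a hindbrain gene that acts downstream of Egr2 and Hoxb1, was the lowest member, at 0.200, 0.751 and 0.858 CPM in the TPS lines. The EPS lines gave 0, 0.0883 and 0.0285 CPM, from 4 counts in all. Its levels were too low in TPS line 1 for the filter, and the fit without a filter gave a log2 fold change of 3.78 (SE 0.92, edgeR adjusted p = 0.00646; 10.1% of the 32608 genes in that fit were called higher). This rested on few reads, with 64 counts over the TPS libraries. In fits that kept the filter and left out a line, Hoxb2 passed the filter in 4, with log2 differences from 3.27 without EPS line 1 to 5.0 without EPS line 2, and was called in 2. On its exons, 27.3% of the bases are shared with the antisense transcript Hoxb3os.

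Hoxb3, which patterns the hindbrain behind the ear and the pharyngeal arches, was at 0.899, 1.19 and 1.97 CPM in TPS cells and at 0.0326, 0.147 and 0.114 CPM in EPS cells. The lowest TPS line was above every EPS line, whose values came from 10 counts over the 6 libraries. The log2 fold change was 3.72 (SE 0.60, edgeR adjusted p = 0.00708), the smallest adjusted p of the 9 tested genes, and the call held whichever of the 6 lines was left out. Hoxb3os covers 52.9% of the exonic bases of Hoxb3, and reads of both strands may be counted together. Hoxb3os itself had 8, 28 and 8 counts in the TPS lines and 1 in each EPS line.

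Hoxb4, known for expanding haematopoietic stem cells when supplied in excess, was the best-covered of the 3′ genes after Hoxb1. Its levels were 4.70, 5.80 and 7.66 CPM in the TPS lines and 0.229, 1.24 and 1.20 CPM in the EPS lines. EPS line 1 was lowest, and the groups did not overlap. The ratio of summed counts was 6.50 (95% interval 5.21 to 8.19), with a log2 fold change of 2.76 (SE 0.59, edgeR adjusted p = 0.0168). Without TPS line 3 the adjusted p was 0.0549.

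Hoxb5 to Hoxb9 make up the middle of the cluster and act in the trunk, the spinal cord and the tissues of the thorax. Together they were at 21.5 ± 3.09 CPM in TPS cells and 5.001 ± 2.17 CPM in EPS cells, a ratio of 4.29. The 5 genes were all called higher, with log2 fold changes from 1.78 for Hoxb9 to 3.42 for Hoxb5.

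Hoxb5, a regulator of vagal neural crest and gut innervation that also marks long-lived blood stem cells, was at 0.874, 0.466 and 1.05 CPM in the TPS lines. The EPS lines gave 0.131, 0.0294 and 0.0569 CPM, from 7 counts in all. TPS line 2 was the lowest of its group and still above EPS line 1, the highest of the other. The log2 fold change was 3.42 (SE 0.63, edgeR adjusted p = 0.0106), and 4.07 without EPS line 1. Hoxb6, expressed in lateral mesoderm and in the trunk, was at 2.57, 2.18 and 2.89 CPM in TPS cells and at 0.0979, 0.441 and 0.484 CPM in EPS cells. It varied least among the TPS lines relative to its mean (2.55 ± 0.358 CPM). Its log2 fold change was 2.88 (SE 0.56, edgeR adjusted p = 0.0125).

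Hoxb7, known from the Wolffian duct and the ureteric bud, was at 3.15, 1.89 and 3.94 CPM in TPS cells. It was among the better-detected members in EPS cells, at 0.751, 0.589 and 0.996 CPM. The lowest TPS line and the highest EPS line lay close, and the log2 fold change was 1.94 (SE 0.42, edgeR adjusted p = 0.0173). The call was lost without TPS line 3 (adjusted p = 0.0652), EPS line 1 (0.0530) or EPS line 2 (0.0602).

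Hoxb8, which acts in the spinal cord and holds myeloid progenitors undifferentiated when overexpressed, was at 2.37, 2.80 and 4.04 CPM in the TPS lines. In the EPS lines it was at 0.0979, 0.559 and 0.256 CPM, all below the lowest TPS line. The log2 fold change was 3.31 (SE 0.60, edgeR adjusted p = 0.0102) and rose to 4.05 without EPS line 2. The call held whichever line was left out.

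Hoxb9, a gene of the thoracic skeleton and mammary gland, had the most counts of the cluster, 1334 in TPS and 358 in EPS libraries. Its levels were 14.04, 10.6 and 11.6 CPM in the TPS lines and 1.502, 4.03 and 4.98 CPM in the EPS lines. Here TPS line 1 was the highest of its group, and EPS line 1 the lowest of the other. The ratio of summed counts was 3.38 (95% interval 3.00 to 3.804), and the log2 fold change of 1.78 (SE 0.43, edgeR adjusted p = 0.0252) was the smallest of the tested members. Leaving out TPS line 1 (adjusted p = 0.0695), TPS line 3 (0.0635) or EPS line 2 (0.0652) ended the call.

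Hoxb13, the most posterior gene, which acts in the tail bud and the prostate, was at 0.999, 3.99 and 2.10 CPM in TPS cells. The EPS lines gave 0.424, 0.353 and 0.455 CPM, a narrow range (0.411 ± 0.0524 CPM), and all lay below TPS line 1. The log2 fold change was 2.51 (SE 0.56, edgeR adjusted p = 0.0195) and fell to 1.90 without TPS line 2. The call was lost when TPS line 3 (adjusted p = 0.0501) or EPS line 1 (0.0590), 2 (0.0676) or 3 (0.0502) was left out.

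Levels of different genes were compared as CPM per kb of exons. In TPS cells Hoxb1 (4.70 ± 3.67 CPM per kb) and Hoxb9 (4.69 ± 0.694) stood at the top and overlapped. Hoxb4 (2.36), Hoxb7 (1.94), Hoxb6 (1.30), Hoxb8 (1.16) and Hoxb13 (1.07) followed, and Hoxb3 (0.318), Hoxb5 (0.286) and Hoxb2 (0.173) were lowest. Of the neighbours in this order, Hoxb9 and Hoxb4 had ranges over lines that did not overlap, and each other pair overlapped. In EPS cells Hoxb9 led (1.36 ± 0.699 CPM per kb), then came Hoxb7 (0.504), Hoxb4 (0.346), Hoxb13 (0.186), Hoxb6 (0.174) and Hoxb8 (0.116), and all neighbours overlapped. Hoxb1 was seventh there, at 0.0590 CPM per kb, ahead of Hoxb5 (0.0260), Hoxb3 (0.0230) and Hoxb2 (0.0112).

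Hoxb1 therefore took a different place in the 2 orders. Its share of the summed CPM per kb of the cluster was 4.96% in TPS line 1, 31.4% in line 2 and 34.2% in line 3. In the EPS lines the share was 0%, 5.05% and 0.335%. Hoxb9 took 41.2%, 23.0% and 19.6% in the TPS lines and 39.1%, 48.02% and 52.8% in the EPS lines. TPS line 1, with Hoxb9 far above Hoxb1, was in this respect close to EPS line 2, since the ratio of Hoxb1 to Hoxb9 in CPM per kb was 0.120 in the former and 0.105 in the latter. The same ratio was 1.37 in TPS line 2 and 1.74 in TPS line 3.

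The TPS lines differed from one another in a gene-dependent way. Hoxb1 was 8.55 times as high in line 2 as in line 1 (95% interval 6.55 to 11.3, counting error only) and 11.9 times as high in line 3 (9.15 to 15.8). Hoxb13 was 3.99 times (2.80 to 5.81) and 2.10 times (1.40 to 3.19) as high in lines 2 and 3 as in line 1. Hoxb2, at low counts, was also lowest in line 1. In the opposite direction, Hoxb9 in line 2 was 0.753 times (0.661 to 0.857) and in line 3 0.824 times (0.720 to 0.942) its level in line 1. Hoxb5 and Hoxb7, like Hoxb9, were lowest in line 2, at 0.533 times (0.284 to 0.968) and 0.601 times (0.444 to 0.808) their level in line 1. Hoxb6 was also lowest there, at 0.846 times (0.626 to 1.14). These intervals hold counting error alone, and each line is a single sample of itself.

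**Figure D2:**
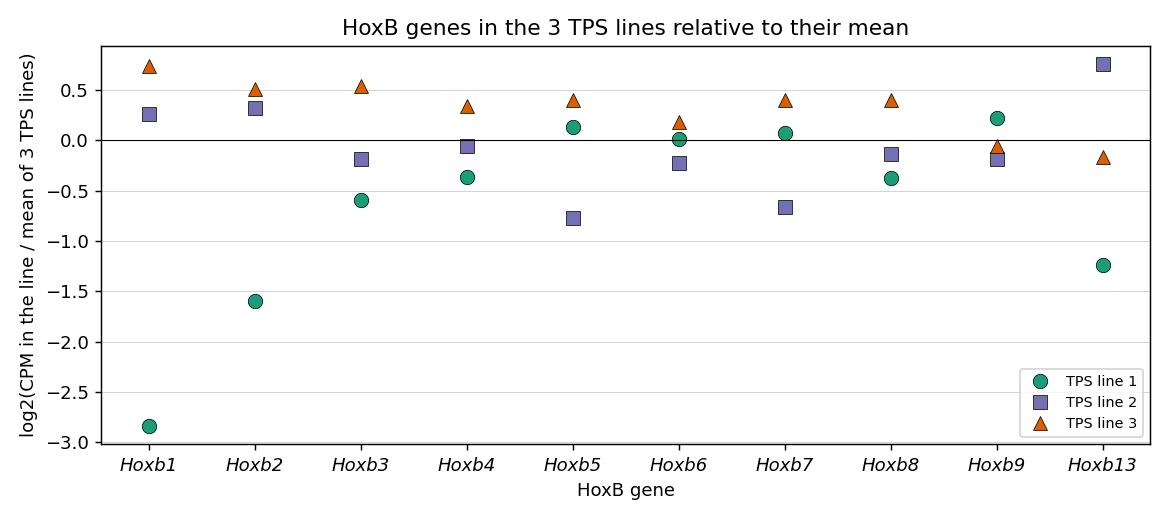
Each HoxB gene in TPS lines 1, 2 and 3 as log2 of its CPM over the mean of the 3 lines. Line 1 (circles) is lowest for Hoxb1 to Hoxb4, Hoxb8 and Hoxb13 and highest for Hoxb9, while the lines lie close together for Hoxb6.

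Among the EPS lines, line 1 had the lowest summed level, 3.26 CPM. Hoxb4 was 5.41 times (95% interval 2.41 to 14.3) and Hoxb9 2.69 times (1.91 to 3.84) as high in EPS line 2 as in line 1. For EPS line 3 over line 1 the values were 5.23 (2.33 to 13.8) and 3.32 (2.39 to 4.70). Hoxb7 and Hoxb13 did not follow this order, with ratios of 0.784 (0.408 to 1.49) and 0.832 (0.347 to 1.98) for line 2 over line 1.

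Once each group's mean had been removed, the deviations of the 6 lines (4 degrees of freedom, log2 of CPM + 1) gave a correlation of 0.829 between Hoxb1 and Hoxb3 and of 0.745 between Hoxb1 and Hoxb13. Hoxb5 and Hoxb7 gave 0.906 and Hoxb6 and Hoxb9 0.872, whereas Hoxb5 and Hoxb13 gave -0.69. Over all tested genes, those whose deviations were most like the mean of the 9 tested HoxB genes were Gm43566, Gm13864, Zfp579, 5830448L01Rik, Txnrd1, Supt6, Tmem86b, Gosr1, Ces2g and Eif2ak1, with r from 0.991 to 0.997. The HoxB genes themselves had r from 0.0888 (Hoxb13) to 0.906 (Hoxb3) with that mean; Hoxb2 was not included. All of these points share library depth, and the values are descriptive.

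In order of position, the log2 difference was 2.51 at Hoxb13, 1.78 at Hoxb9, 3.31 at Hoxb8, 1.94 at Hoxb7, 2.88 at Hoxb6, 3.42 at Hoxb5, 2.76 at Hoxb4, 3.72 at Hoxb3 and 6.26 at Hoxb1. No trend with position was tested. Of the 9 other annotated genes inside the cluster, 3 passed the filter. Gm53, a lincRNA between Hoxb13 and Hoxb9, was at 9.93 ± 1.17 CPM in TPS and 4.51 ± 1.30 CPM in EPS cells, with a log2 fold change of 1.14 (SE 0.29, edgeR adjusted p = 0.029). The antisense transcript Hoxb5os, which shares 3.59% of the exonic bases of Hoxb5, was at 0.602 and 0.0815 CPM (log2 fold change 2.85, SE 0.74, edgeR adjusted p = 0.0323). The third was the Mir196a-1 gene, with 33, 24 and 14 counts in the TPS lines and 4, 21 and 9 in the EPS lines, which overlapped once scaled for depth (0.90, SE 0.60, edgeR adjusted p = 0.312).

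Outside the cluster, the nearest protein-coding gene on the Hoxb13 side, Ttll6, a tubulin-modifying enzyme, lay 28.9 kb away. It had a log2 difference of 1.25 (SE 0.72, edgeR adjusted p = 0.251), and its lines overlapped. The next one, Calcoco2, an autophagy receptor, was higher in TPS cells by 4.00 (SE 0.44, edgeR adjusted p = 0.00241), with 5267, 2548 and 1532 counts against 104, 234 and 179. On the Hoxb1 side, Skap1, an adaptor protein of T cells and the only protein-coding gene within 300 kb, lay 96.3 kb away and was not called (1.41, SE 0.84, edgeR adjusted p = 0.26).

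**Figure D3:**
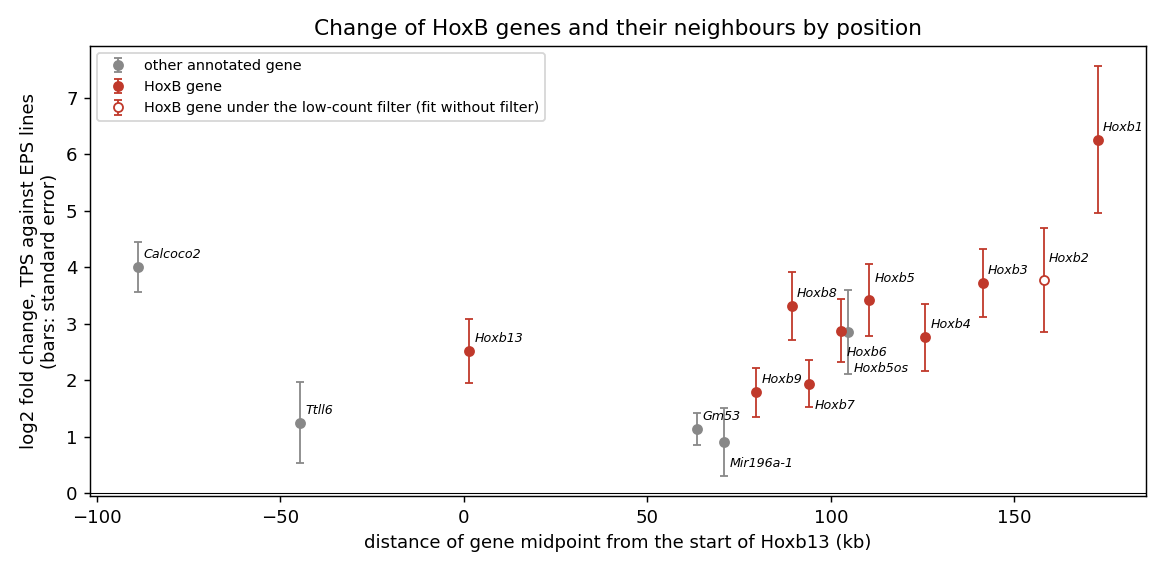
Log2 fold change of TPS against EPS lines (bars, standard error) for tested genes by distance of the gene midpoint from the start of Hoxb13 in kb; red points are HoxB genes, the open one is Hoxb2 from the fit without a filter, and grey points are other genes. Hoxb1, at the 3′ end, is highest with 6.26, and Gm53 and Mir196a-1, in the gap between Hoxb13 and Hoxb9, are lowest within the cluster.

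Both microRNA genes of the cluster are shown because their mature products can pair with HoxB messages. miR-196a-5p arises between Hoxb13 and Hoxb9 (chr11:96265187-96265208) and miR-10a-5p between Hoxb5 and Hoxb4 (chr11:96317186-96317208), both on the plus strand in RefSeq on GRCm38.p6. Capitals mark the seed, bases 2 to 8.
mmu-miR-196a-5p: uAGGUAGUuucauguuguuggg
mmu-miR-10a-5p: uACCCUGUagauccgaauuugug

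Hoxb8 mRNA is a known cleavage target of miR-196. In the GENCODE transcript of Hoxb8, the best site for miR-196a-5p was in the 3′ UTR at chr11:96284888-96284909 of GRCm38, plus strand, where all 22 bases pair, 21 by Watson-Crick pairs and 1 by a G:U pair. Of 20916 genes with a 3′ UTR, Hoxb8 was the 1 with at least 21 Watson-Crick pairs, and 2 had all 22 bases paired when G:U pairs were counted, Hoxb8 and Rps6ka2. Matches to the miR-196a-5p seed were found in the 3′ UTRs of Hoxb1, Hoxb6 and Hoxb7, and a match to the miR-10a-5p seed in that of Hoxb3. These seeds had a match in 6.21% and 12.7%, respectively, of 20659 3′ UTRs with a median length of 989 bases. Capitals mark paired bases in the Hoxb8 site and the seed match in the others.
Hoxb8, miR-196a-5p: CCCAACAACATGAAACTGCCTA
Hoxb1, chr11:96368205-96368226, miR-196a-5p: tctttgtatctgcaACTACCTc
Hoxb6, chr11:96301373-96301394, miR-196a-5p: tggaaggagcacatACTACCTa
Hoxb7, chr11:96289784-96289805, miR-196a-5p: ctgtaaaaaaatatACTACCTa
Hoxb3, chr11:96347287-96347309, miR-10a-5p: tgacttaacgtgaaaACAGGGTa
Poly(A) libraries do not measure mature microRNAs. Hoxb8, with the near-complete site, had a log2 difference of 3.31. Hoxb1, Hoxb6 and Hoxb7, with a match to the miR-196a-5p seed, had 6.26, 2.88 and 1.94. The other tested members ranged from 1.78 for Hoxb9 to 3.72 for Hoxb3. A link between these differences and the microRNAs was not tested. The Mir10a locus had 0 counts in all 12 libraries.

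HoxB was set beside the other 3 Hox clusters, counting tested genes with the same edgeR test. HoxA had 6 of 7 called higher and 0 lower, HoxD 3 of 4 and 0, and HoxC 5 of 8 higher and 2 lower (Hoxc12 and Hoxc13). When a line was left out, HoxA had 3 to 8 called higher (3 without TPS line 2, TPS line 3 or EPS line 2), and HoxD had 3. HoxC then had 2 to 5 higher (2 without TPS line 1, EPS line 1 or EPS line 2, and 3 without TPS line 3) and 0 to 2 lower (0 without TPS line 1, TPS line 3, EPS line 1 or EPS line 2, and 1 without EPS line 3). The median log2 difference of tested genes was 3.54 for HoxA, 2.88 for HoxB, 2.56 for HoxD and 1.79 for HoxC. For all tested genes it was -0.00. These counts and medians depend on the filter, as some genes passed it only through the lines of a single group. As for HoxB, passing through the TPS lines means that every TPS line but not every EPS line reached the cutoff. It held for Hoxa3, Hoxa5, Hoxa7, Hoxa9, Hoxa10, Hoxc5, Hoxc9, Hoxd1, Hoxd9 and Hoxd13. Hoxc12 passed through the EPS lines. Without the filter the medians of the clusters kept this order, from 3.60 for HoxA to 1.46 for HoxC, beside 0.18 for all genes. In EPS cells the summed level was 2.34 ± 0.758 CPM for HoxA, 6.57 ± 2.89 for HoxB, 18.2 ± 1.81 for HoxC and 1.95 ± 0.288 for HoxD. In TPS cells HoxB had the highest sum, 42.7 ± 11.5 CPM, on average, and HoxC (28.7 ± 6.64) and HoxA (25.3 ± 12.8) followed, but in TPS line 1 HoxC (34.1 CPM) was above HoxB (31.3 CPM). No test was made of the difference between clusters.

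Paralogs with the same number were set beside the HoxB genes. Hoxd1 was at 1.55, 2.12 and 1.59 CPM against 0.294, 0.265 and 0.228 CPM (log2 fold change 2.73, SE 0.39, edgeR adjusted p = 0.00461). Unlike Hoxb1, it differed little among the TPS lines and was detected in each EPS line. In group 13 the paralogs went different ways. Beside Hoxb13 (2.51), Hoxc13 fell by 1.89 on the log2 scale (SE 0.43, edgeR adjusted p = 0.0201), and Hoxa13 (1.11, adjusted p = 0.484) and Hoxd13 (1.70, adjusted p = 0.145) were not called. In groups 8 and 9, Hoxc8 (2.80), Hoxd8 (2.38), Hoxc9 (2.18), Hoxd9 (2.88) and Hoxa9 (3.24) were called higher, as were Hoxb8 and Hoxb9.

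**Figure D4:**
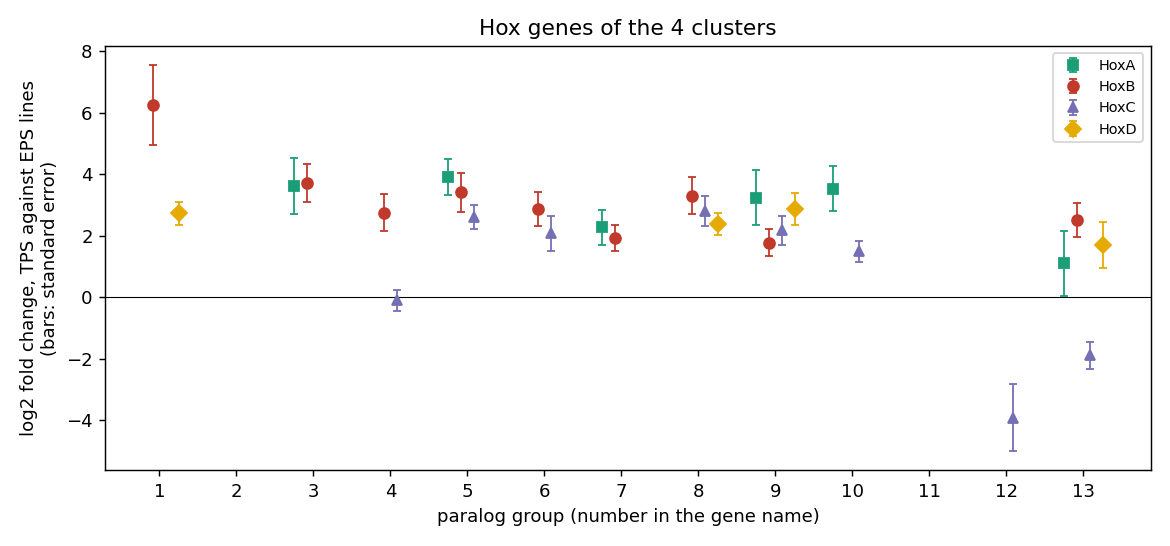
Log2 fold change of TPS against EPS lines (bars, standard error) of tested genes of the 4 Hox clusters by paralog group, not every tested gene being shown. HoxB points (red circles) lie between 1.78 and 6.26, and Hoxc4 (-0.10, not called), Hoxc12 and Hoxc13 lie below 0.

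Of 20 known regulators and cofactors of HoxB genes, 19 were tested, 10 were called higher and 0 lower. Among the retinoic acid receptors, Rarb, itself a direct target of retinoic acid, was at 0.999, 1.09 and 0.922 CPM in TPS lines and had no count in EPS lines. Rarg, the receptor that CD1530 activates, was at 116, 87.8 and 189.6 CPM against 30.4, 37.4 and 42.0 CPM (log2 fold change 1.84, SE 0.29, edgeR adjusted p = 0.00635). Rara did not pass the test, at -0.66 (SE 0.30, edgeR adjusted p = 0.154). Cdx1, an activator of Hox genes that itself answers retinoic acid and Wnt signals, was at 28.0, 81.3 and 100.1 CPM in TPS lines and 7.44, 8.33 and 11.6 CPM in EPS lines (2.93, SE 0.46, edgeR adjusted p = 0.00632). Cdx2 was at 0.675, 3.65 and 9.37 CPM against 0, 0.177 and 0.541 CPM (4.21, SE 1.22, edgeR adjusted p = 0.0448). Both Cdx genes, like Hoxb1, were lowest in line 1 and highest in line 3 of the TPS lines. Meis1, Meis2, Meis3 and Pbx2, which encode cofactors that bind DNA with Hox proteins, were called higher by 0.51 (Pbx2) to 2.84 (Meis2). Other cofactors of the same families, Pbx3 (0.78, edgeR adjusted p = 0.0983), Pbx4 (-0.99, 0.103), Pknox1 (-0.32, 0.159) and Pknox2 (0.56, 0.417), were not called. Egr2, a hindbrain regulator of Hoxb2, was not called (-1.46, SE 0.83, edgeR adjusted p = 0.243).

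Retinoic acid target and metabolism genes were tested for 11 of 12, with 7 higher and 0 lower. They included Stra8 (log2 fold change 7.98), Stra6 (5.72), the retinoic acid-degrading Cyp26a1 (4.39) and Cyp26b1 (3.54), and Dhrs3 (2.15). Cyp26b1 was highest in TPS line 1 (19.99 CPM, against 2.25 and 7.15 in lines 2 and 3), opposite to Hoxb1, and Cyp26a1 was lowest there (0.650, 4.59 and 1.87 CPM). Aldh1a2 and Rdh10, which make retinoic acid, were not called (0.76, adjusted p = 0.108; 0.67, adjusted p = 0.225). Of 19 Polycomb and Trithorax genes, 2 were called higher, with Cbx8 by 1.66, and 5 lower. Those lower were Ezh2 (-0.51), Ezh1 (-0.59), Eed (-0.71) and Cbx7 (-0.51), of the Polycomb group, and Kmt2b (-0.66), a methyltransferase of the Trithorax group. Dot1l, whose product EPZ004777 inhibits, was at -0.17 (SE 0.16, edgeR adjusted p = 0.482).

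Fibroblast genes differed between the groups in the same direction as the HoxB genes. Of 16 such genes, 15 were tested, 9 were called higher in TPS cells and 0 lower, and the 16th, S100a4, had no count in any library. Col1a1, the main fibroblast collagen of the list, had a log2 fold change of 2.62 (SE 0.57, edgeR adjusted p = 0.0178). The summed level of the list was 10244, 5582 and 5978 CPM in the TPS lines and 2534, 4500 and 3961 CPM in the EPS lines, a ratio of means of 1.98. Fn1, fibronectin, made up most of this sum in the EPS lines and did not pass the test (0.05, SE 0.27, edgeR adjusted p = 0.903). The other 15 genes summed to 6326, 3502 and 3693 CPM in the TPS lines and 325.8, 1301 and 1392 CPM in the EPS lines, a ratio of 4.48, beside 4.95 for the HoxB sum without Hoxb1. Among the TPS lines, line 1 had the most fibroblast counts and the lowest HoxB sum, but without Hoxb1 the HoxB sum was 29.8, 29.6 and 36.1 CPM in lines 1 to 3, and Hoxb9 was highest in line 1. Among the EPS lines, line 1 had the least of both sums.

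HoxB levels were also scaled to the fibroblast genes of the same line, a scale chosen after the values were seen. Over 1000 CPM of all 16 genes, 8 members had every TPS line above every EPS line, as did 7.95% of tested genes, and the lines overlapped for Hoxb2 and Hoxb13. Over the 15 genes other than Fn1, this held for 2 members, Hoxb3 and Hoxb6, and for 2.79% of tested genes. On that second scale the HoxB sum was 4.95, 12.2 and 14.7 in TPS lines and 10.02, 6.04 and 6.17 in EPS lines, so that TPS line 1 lay below all EPS lines and TPS lines 2 and 3 above them. Hoxb9 was at 2.22, 3.02 and 3.13 against 4.61, 3.10 and 3.58, and Hoxb1 at 0.241, 3.72 and 4.92 against 0, 0.294 and 0.0204. Because the divisor itself differed between the groups, this scale lowered the TPS lines against the EPS lines for every gene. The counts of members are therefore to be read only beside the shares of tested genes on the same scale. How much of the HoxB counts came from feeder cells was not tested.

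**Figure D5:**
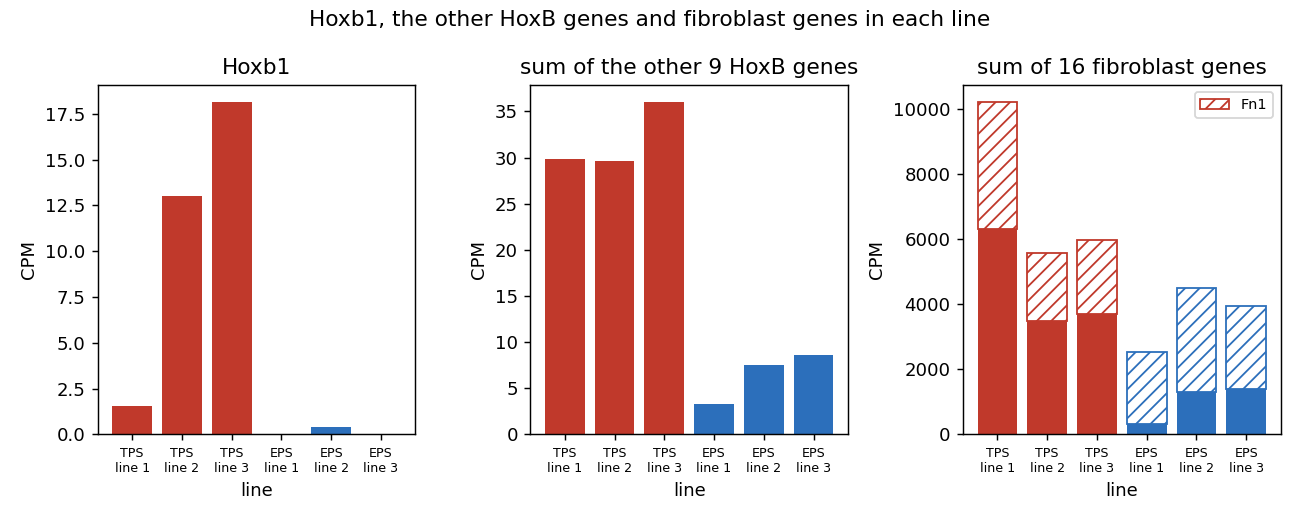
Level in CPM of Hoxb1 (left), of the other 9 HoxB genes summed (middle) and of 16 fibroblast genes summed (right, with Fn1 hatched on top of the other 15) in each TPS (red) and EPS (blue) line. TPS line 1 is highest for fibroblast genes (10244 CPM) and lowest of the TPS lines for Hoxb1 (1.52 CPM).

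Markers of other cells that express Hox genes were read in the same lines. Of 8 posterior and paraxial mesoderm genes, 5 were tested and 2 called higher, Meox1 (log2 fold change 4.17) and Fgf8 (3.82). All 8 genes summed to 21.5 CPM in TPS line 1, 60.6 in line 2 and 121.6 in line 3, and to 20.5 to 31.0 CPM in EPS lines. Most of this sum came from T and Tcf15, which were not called, and Fgf8 was highest in TPS line 2. T, the marker of the primitive streak and tail bud, was at 1.95, 16.97 and 29.6 CPM in TPS lines and 7.83, 6.80 and 10.5 CPM in EPS lines, and was not called (0.95, SE 0.76, edgeR adjusted p = 0.407). Of 8 neural progenitor genes, 6 were tested, with Tubb3 higher and Olig2 lower. Endoderm and trophectoderm lists had 2 of 5 tested genes higher each. The trophectoderm list summed to 25.0, 459.9 and 82.3 CPM in TPS lines 1 to 3 and to 22.6 to 40.2 CPM in EPS lines. Krt8 and Krt18, keratins of simple epithelia that were not called, were at 243 and 198 CPM in TPS line 2. Of the TPS lines, that line had the highest Hoxb13 and the lowest Hoxb5, Hoxb6, Hoxb7 and Hoxb9. The pluripotent list had 0 of 8 genes higher and 5 lower, at 3347 to 3938 CPM in TPS and 6303 to 8203 CPM in EPS lines, and the 2-cell embryo list had 8 of 8 higher. The part of any such cells in the HoxB counts was not tested.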

How the data were processed

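Bulk RNA-seq was made from 3 TPS and 3 EPS lines with 2 technical replicates each. The deposited files hold raw counts per gene, which the authors made after trimming with fastp 0.19.7 and alignment with STAR 2.7.3a to mm10, per the submitters' processing notes. The counting tool, its annotation, strand setting and treatment of multi-mapped reads are not given in the sources used here. The described library protocol names no strand marking, so antisense partners may share reads. Of 55401 gene identifiers, 55141 matched GENCODE M21. Technical replicates were summed per line. Genes passed filterByExpr (minimum count 10, total 15; 17468 genes). The quasi-likelihood test of edgeR 4.0.16 (R 4.3.3) with TMM factors and Benjamini-Hochberg adjustment over all tested genes compared the lines at 0.05. Levels are CPM on TMM-scaled library sizes, and lengths are exon unions. Errors are SD over lines. Intervals are exact 95% binomial intervals for counts (scipy 1.17.1) and, like zero-count limits (3 counts), cover counting error only, since PCR copies could not be told from molecules. The procedure was tested on simulated data. Alternatives included DESeq2 1.42.0, other scalings (against fibroblast genes, added after seeing the data), filters and leaving out each line. Named genes were all 10 members, paralogs, genes inside the cluster, 2 flanking genes a side where present within 300 kb, listed regulators, and the 10 genes most like the HoxB mean, and a few of these are not reported here. Members and lists were chosen with earlier results of these data known. Protein sequences and a scan of the whole cluster for receptor sites were not run.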

Additional observations from a re-analysis of the deposited data

How the results depend on the processing

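The 10 HoxB genes kept a positive log2 difference under every alternative fit that gave one, the scaling against fibroblast genes not being a fit. Every tested member was called higher with RLE, upper quartile or library-size scaling (9 of 9, beside 2513, 2688 and 2987 of 17468 genes) and with technical replicate 2 alone (9 of 9, beside 2074 of 16108). The same held with DESeq2 (10 of 10, beside 14.9% of genes called higher) and no filter (10 of 10, beside 3290 of 32608). It also held with technical replicate 1 alone (8 of 8, beside 2000 of 15596) and a filter of 1 CPM in 3 lines (7 of 7, beside 2068 of 14648). With the 12 libraries as samples 8 of 8 were called, beside 4067 of 15512 genes. That fit counts technical replicates as independent samples, so its p-values do not measure the spread between lines. The number called was 1 of 9 at an adjusted p under 0.01, and 5 to 9 when a line was left out, 5 without TPS line 3. The labels do not say whether same-numbered lines are related. Same-numbered lines had correlations of deviations of 0.024, -0.12 and 0.042, and different-numbered lines from -0.24 to 0.23. With so few lines these values cannot show whether the samples were paired. With the number as a block 7 of 9 HoxB genes were called, without Hoxb9 and Hoxb13.

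Over all genes, 2509 were higher and 1282 lower, 66.2% of calls being higher. Library size alone gave 2987 and 745 (80.0%) and shifted the median of all genes to 0.14. The 12 libraries as samples, with technical replicates counted as independent, gave 4067 and 3610 (52.98%). The block gave 1714 and 721, and an adjusted p under 0.01 gave 873 and 258. Leaving out a line gave 1617 to 2234 higher and 493 to 1047 lower. HoxA genes higher numbered 2 at an adjusted p under 0.01 and 3 to 8 without a line. HoxC genes higher numbered 3 with technical replicate 1 alone, 2 with the block, 2 at an adjusted p under 0.01 and 2 to 5 without a line, and those lower 1 with 1 CPM in 3 lines, 1 with the block, 0 at an adjusted p under 0.01 and 0 to 2 without a line. The cause of these shifts was not tested.

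Set against fibroblast genes, a scale added after the data were seen, every TPS line was above every EPS line for 8 members and 7.95% of tested genes. Once Fn1 was left out, this held for 2 members and 2.79% of tested genes. There the TPS means of Hoxb7, Hoxb9 and Hoxb13 were below their EPS means. For Hoxb7 and Hoxb13 the EPS mean was raised by EPS line 1, at 2.30 and 1.30. EPS lines 2 and 3 were at 0.453 and 0.716 for Hoxb7 and at 0.272 and 0.327 for Hoxb13.

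Depth limits Hoxb2, Hoxb3 and Hoxb5 most, with 4, 10 and 7 counts over the EPS libraries.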
